A study of Mus musculus with 4 samples.

Results

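The nuclear-encoded genes of oxidative phosphorylation were examined in mouse hair follicle stem cells (HF-SCs), the bulge cells from which a new hair grows. Members were the genes whose symbols mark them as subunits of complexes I to V and whose mean normalized count, a read count divided by the sequencing depth factor of its library and averaged over all libraries, was over 50. The names matched 84 genes, and 76 of them passed, out of 24421 genes in all. Of these, 34 were counted in complex I, 4 in complex II, 8 in complex III, 13 in complex IV and 17 in complex V. Ndufa4 and its paralogue Ndufa4l2 were counted in complex IV, where the Ndufa4 protein is found, although their names are those of complex I.

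Bulk RNA-seq was made from FACS-purified HF-SCs of the back skin of C57BL/6 mice at postnatal day 44, with 2 control libraries and 2 *miR-205*-induced libraries. Mice of both groups carried the K14-H2BGFP allele, were matched by gender and were compared with littermates. Induced mice carried *pTRE2-miR-205*, first injected into FVB mice, together with *Krt14*-rtTA, so the transgene can be switched on by doxycycline wherever the keratin 14 promoter is active in skin and not only in HF-SCs. Doxycycline chow was given for 2 days from postnatal day 42. The labels call the control mice untreated, whereas the protocol has both groups fed doxycycline. Cells were gated as live, H2BGFP-high, Sca1-negative, integrin α6-high and CD34-high.

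The deposited table gives each gene a single mean normalized count, averaged by the authors over control and induced libraries together, and no value of a single library. Levels described here are therefore those of both groups pooled, and the spread between libraries is unknown. No comparison of induced with control HF-SCs was made, because the remaining columns hold the authors' own comparison and were not used. Fewer cells of a type and less RNA per cell cannot be told apart in such libraries. Relative depths of the 4 libraries, read from genes with 1 read in 1 library, were 0.716, 0.966, 1.18 and 1.24, a range of 1.73-fold, and which library has which depth was not assigned. Counting error alone was between 0.599% of the mean for Atp5b and 6.49% for Atp5s, and every interval below covers counting error only.

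The sorted cells were checked against markers. All 12 HF-SC markers were over 50, among them Krt15 with a mean normalized count of 119883 and Cd34 with 14575, and they summed to 3.11% of all counts. Cd34 and Itga6 encode CD34 and integrin α6, for which the cells were gated, so their levels are not an independent check. Krt5, Krt14 and Itga6, which basal keratinocytes of the epidermis also express, made up 1.91%. The other 9 genes of the list, Tcf3 and Tcf4 among them, made up 1.2%, and no list of epidermal basal markers was used. Fibroblast markers summed to 0.102% with 3 of 4 over 50, suprabasal markers to 0.0764% with 4 of 4, sebaceous markers to 0.0271% with 2 of 4, myeloid markers to 0.0264% with 4 of 4 and melanocyte markers to 0.00577% with 2 of 4. Pericyte markers had 1 of 4 over 50, and endothelial and skeletal muscle markers had 0 of 4. Single genes of these other lists were high, such as Krt10 with a mean normalized count of 7246, Col1a1 with 5186 and Cd74 with 2744. Others of the same lists were lower, such as Ivl with 116, Pdgfra with 39.5 and Ptprc with 87.6. The sort was therefore not free of RNA of other cells, and the part of these cells in the levels below was not tested.

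Oxidative phosphorylation is the last stage of respiration in mitochondria. Complexes I and II pass electrons from NADH and succinate to ubiquinone, complex III passes them on to cytochrome c, and complex IV hands them to oxygen. Complexes I, III and IV pump protons out of the matrix, and complex V, the ATP synthase, makes ATP as the protons return. Most subunits are encoded in the nucleus and a few in the mitochondrial genome. Resting HF-SCs are known for relying much on glycolysis.

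The sequences that bear on these genes are of 2 kinds. The first is the miRNA that was induced and the places where its seed pairs with a member's 3'UTR, shown because these are the members whose annotated 3'UTR holds the match. Mature miR-205-5p (RefSeq, GRCm38.p6, chr1:193507503-193507524, minus strand) is shown with its seed, bases 2 to 8, in capitals, and the 3'UTR stretches (NCBIM37, minus strand) with the match to the seed, ATGAAGG, in capitals.
miR-205-5p: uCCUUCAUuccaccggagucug
Sdhd, chr9:50405103-50405126: cagtgaggggggATGAAGGataag
Sdha, chr13:74459974-74459997: aagagagtctcaATGAAGGattgc
Ndufa4, chr6:11850493-11850516: aagctgctgataATGAAGGtcttt

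The second kind is promoter stretches (RefSeq, GRCm38.p6, all on the minus strand) around the cores of motifs bound by NRF1, by ETS family factors such as GABP, and by YY1. These factors are known as regulators of respiratory chain genes. For each motif the members with the highest level per kilobase that hold it were chosen, and the core or its reverse complement is in capitals.
Atp5g2, NRF1 core, chr15:102671073-102671098: gctccggccGCGCATGCgcagagcct
Atp5l, NRF1 core, chr9:44920966-44920991: accaataacGCATGCGCatttccccc
Cox8a, ETS core, chr19:7217606-7217630: tccgaaataCTTCCGGctcgggcgt
Atp5l, ETS core, chr9:44920939-44920963: ttcaccgatCTTCCGGaccaacatg
Atp5j2, YY1 core, chr5:145191502-145191527: caggacttcAAGATGGCgtcactcgg
Ndufa9, YY1 core, chr6:126849099-126849124: ttgtgggagAAGATGGCggccgccgt

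Together the 76 members held 0.458% of all normalized counts. Complex V took 43.4% of that sum, complex I 21.9%, complex IV 19.9%, complex III 10.4% and complex II 4.5%. Much of the share of complex V came from a pair of genes, since Atp5b and Atp5a1 had the highest mean normalized counts of all members, 7125 and 6435, and the next, Cox4i1, had 3247. Member genes are short, with a median union of annotated exons of 1328 bases against 3939 bases for all genes over 50, and 27 of the 76 are under 1 kb. Levels of different genes were therefore compared per kilobase (kb) of exon.

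**Figure D1:**
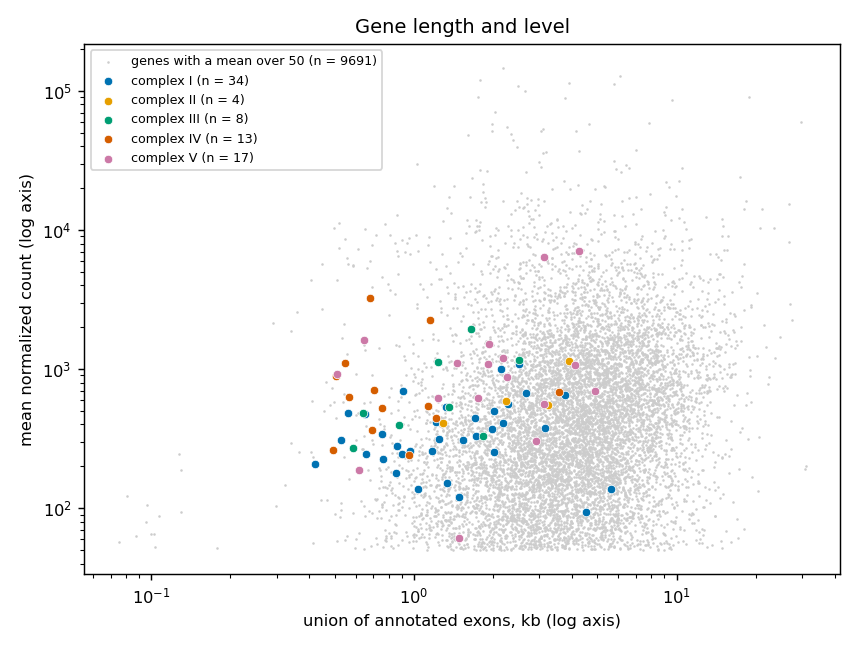
Each point is a gene, with the length of its annotated exons in kb on the horizontal axis and its mean normalized count over the 4 libraries on the vertical axis, both logarithmic. Grey points are the 9691 genes with a mean over 50 and a known length, and the 76 members in colour lie towards the short side, with a median of 1328 bases.

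Per kb of exon the members stood high among the genes of these cells. Their median was 359 normalized counts per kb against 102 for all genes over 50, and 72 of 76 lay above the middle gene. The median member was at percentile 83.4 per kb, and 20 members were above percentile 90. On the undivided means the median member was at percentile 57.6. The position of the set thus depended on division by length. It held with another length, since per kb of coding sequence the median member was at percentile 82.6. Genes are not replicates of one another, so these figures describe the pooled libraries and carry no test.

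Between complexes the median was lowest in complex I, 254 per kb with quartiles of 187 and 397, and next lowest in complex II with 279. Complex III had a median of 464 with quartiles of 435 and 789, complex V 505 with quartiles of 262 and 789, and complex IV 692 with quartiles of 479 and 1767. The full ranges over genes overlapped between neighbours in this order, as in complex II with 170.0 to 320.1 and complex III with 181 to 1179. All 4 members of complex II, all 8 of complex III and all 13 of complex IV lay above the middle gene, as did 31 of 34 of complex I and 16 of 17 of complex V. Complexes I and II remained the lowest per kb of the longest transcript and per kb of coding sequence. The order at the top did not hold: per kb of coding sequence complex V, with 2290, was above complex IV, with 2096, and per kb of the longest transcript complex III, with 663, was above complex V, with 650.4.

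**Figure D2:**
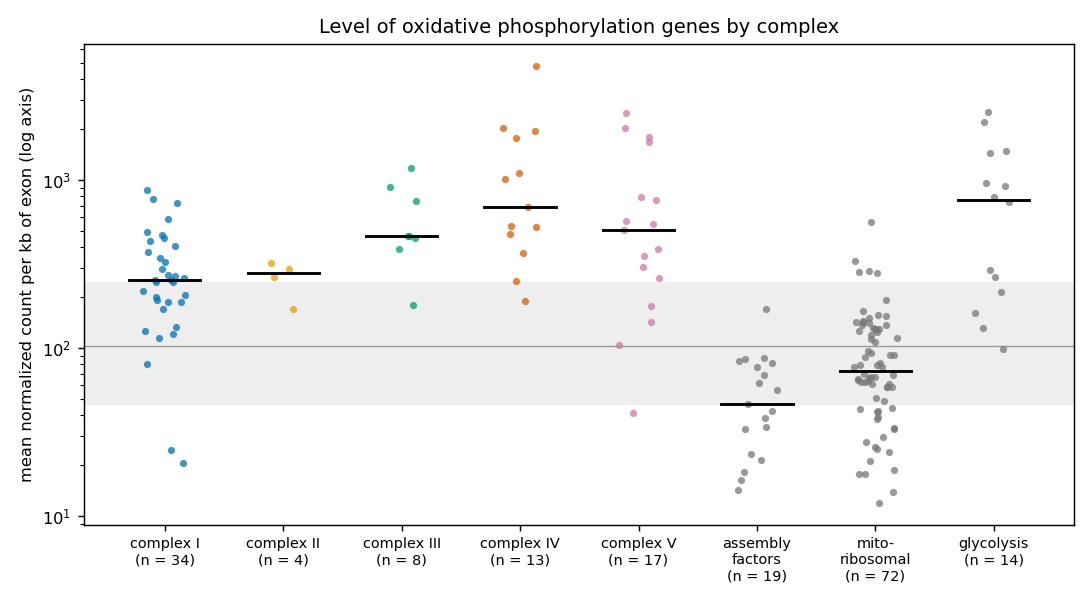
Mean normalized count per kb of exon on a logarithmic axis, with 1 point per gene over 50 that has a known length, by complex and for 3 other groups of genes, and black lines at the medians. The grey band holds the middle quartiles of all genes over 50 and the grey line their median of 102, and the medians of all 5 complexes, from 254 to 692, lie above that band.

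Complex I is built from a catalytic core and many accessory subunits. The 7 nuclear-encoded core genes had a median of 192 per kb and the 27 accessory genes one of 255. Ndufv1, which carries the flavin that accepts electrons from NADH, had 435 per kb. Its partner in the part that oxidises NADH, Ndufv2, had 187, and Ndufs1, which holds several iron-sulfur clusters in the same part, had 172, the lowest of the core. Ndufs8, which carries iron-sulfur clusters further along the electron path, had 269. Ndufv1 was thus at 2.33 times Ndufv2 (95% counting interval 2.19 to 2.47), and per kb of coding sequence at 1.58 times.

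The highest genes of complex I were accessory, Ndufa6 with 870.3 per kb, Ndufb11 with 769 and Ndufb9 with 729.9. The lowest were Ndufc1 with 80.3, Ndufb2 with 24.6 and Ndufb7 with 20.7. The last pair has long annotated exon unions, 5628 and 4522 bases, around coding sequences of 318 and 414 bases. Per kb of coding sequence Ndufb2 had 435 and Ndufb7 226, and the lowest member of the complex was then Ndufv3 with 179.8. By mean normalized count Ndufb7 had 93.5, still the lowest of the complex, and Ndufv1 the highest with 1096.

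Complex II, succinate dehydrogenase, is wholly nuclear-encoded and also works in the citric acid cycle. Its 4 genes lay close together. Sdhd, a membrane anchor, had 320.1 per kb, the flavoprotein Sdha had 294, the iron-sulfur protein Sdhb had 264 and Sdhc, the other anchor, had 170.0. The highest was 1.88 times the lowest, the narrowest span of any complex, but complex II also has the fewest genes. A span from lowest to highest tends to widen with the number of genes. Sdha was 1.12 times Sdhb (1.06 to 1.17) per kb of exon and 0.824 times (0.784 to 0.866) per kb of coding sequence, so their order could not be set. Sdhc was likewise the lowest per kb of exon and the highest, with 1084, per kb of coding sequence.

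In complex III, Uqcrc1, a core protein, was highest with 1179 per kb and a mean normalized count of 1952. Its partner Uqcrc2 had 464, and the ratio of the 2 was 2.54 (2.45 to 2.64), or 1.59 per kb of coding sequence. Uqcrfs1, the Rieske iron-sulfur protein, had 389.7. Among the small subunits Uqcrh had 909.5, Uqcr11 748, Uqcr10 464, Uqcrb 450.0 and Uqcrq 181. Per kb of coding sequence Uqcrh was the highest with 4167 and Uqcrfs1 the lowest with 644.

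Complex IV, cytochrome c oxidase, had the gene with the highest level of all members. Cox4i1, which lies on chr8:120668225-120674209 (GRCm38.p6) and encodes the subunit IV found in most tissues, had 4782 per kb and ranked at percentile 98.7. Cox8a followed with 2048, Cox7a2l with 1970 and Cox6b1 with 1767. Cox7a2l, known as a factor that joins complexes III and IV, is counted here by name and not as a structural subunit. Its function in these cells was not tested. Cox5b had 1105 and Cox6a1 1012. Cox7b had 367, Ndufa4l2 249.9 and Cox6c 191. Cox6c too has a long exon union, 3567 bases, and per kb of coding sequence it had 2952.

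**Figure D3:**
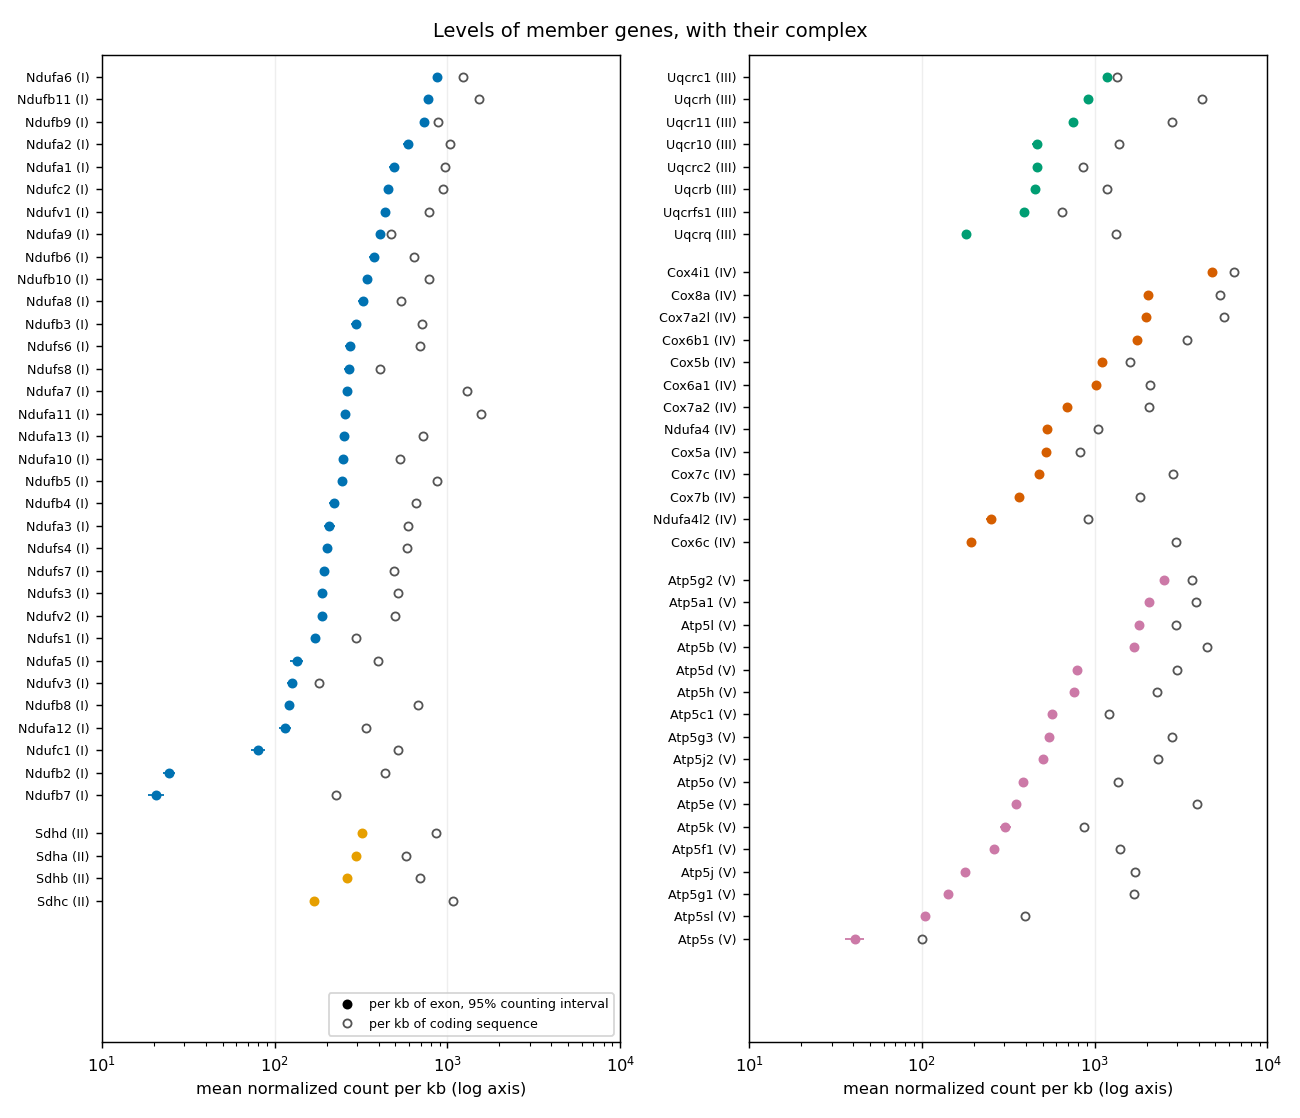
Each row is a gene, grouped by complex and ordered by its level on a logarithmic axis. Filled points give the mean normalized count per kb of exon with its 95% counting interval and open points the level per kb of coding sequence; filled points run from 20.7 for Ndufb7 to 4782 for Cox4i1, and some open points, such as those of Ndufb2 and Cox6c, lie far to the right of the filled ones.

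Several subunits of complex IV exist in forms used by different tissues, and in each such family 1 form had far more counts than the others in this table. Cox4i2, the form known from lung and induced by low oxygen, had a mean normalized count of 2.15, and Cox4i1 was 1755 times higher per kb (892 to 3452). Cox6b2, the testis form, had 21.4, and Cox6b1 was 45.6 times higher (36.7 to 56.7). The heart and skeletal muscle forms Cox6a2 and Cox8b were listed at 0, as was the testis form Cox7b2. Their partners Cox6a1, Cox8a and Cox7b had 710.5, 1116 and 445. No fold is given against a gene at 0, since the table also lists at 0 genes that every cell uses, such as the ribosomal protein gene Rpl26. Cox7a1, another form of heart and muscle, had a mean of 0.471 and the testis form Cox8c 0.424, both under a mean of 0.732, which 3 counts over the 4 libraries give, against 522 for Cox7a2 and 1116 for Cox8a. The threshold of 50 left out these 7 low forms and Ndufs5 of complex I, and Cox6b2 was the one nearest to it. The nearest members above it were Atp5s with 60.7 and Ndufb7 with 93.5.

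Other families were not as uneven. Cox5b was 2.11 times Cox5a per kb (1.97 to 2.25), both being single forms that every complex IV holds. Cox7a2l was 2.85 times Cox7a2 (2.71 to 2.99). Ndufa4l2, the paralogue known to be induced by low oxygen, had a mean normalized count of 239.9 against 262 for Ndufa4. The counting interval of that ratio of means, 0.998 to 1.19, included no difference, while per kb of exon Ndufa4 was 2.13 times higher (1.95 to 2.33) and per kb of coding sequence 1.16 times higher (1.06 to 1.26).

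**Figure D4:**
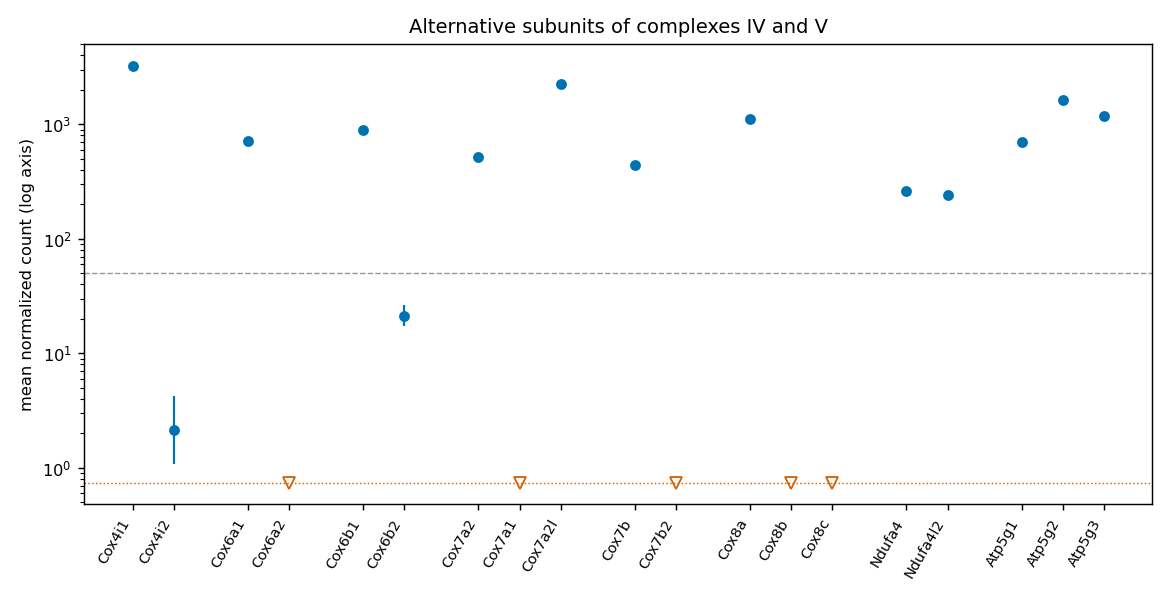
Mean normalized count on a logarithmic axis for the subunit families with more than 1 gene, with points and 95% counting intervals (most are smaller than the points). Open triangles are drawn at a mean of 0.732, 3 counts over the 4 libraries, for genes under it (Cox6a2, Cox7b2 and Cox8b listed at 0, Cox7a1 and Cox8c above 0), the dotted line is that mean and the dashed line the threshold of 50.

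Complex V consists of the catalytic F1 head, a peripheral stalk and a membrane part with the rotating c ring. The 5 genes of the head held 28.0% of the counts of all members. Atp5a1 (α) had 2053 per kb and Atp5b (β) 1682, while Atp5d (δ) had 789, Atp5c1 (γ) 568 and Atp5e (ε) 352. Atp5b was 0.819 times Atp5a1 per kb of exon (0.806 to 0.833) and 1.16 times per kb of coding sequence (1.14 to 1.18), so this order turned with the length used. Per kb of coding sequence Atp5e had 3886, near the 3872 of Atp5a1. The assembled head holds several copies of α and β for each copy of γ, δ and ε. The 4 genes of the peripheral stalk ranged from 179 to 759.6 per kb and the other 3 membrane subunits, Atp5l, Atp5j2 and Atp5k, from 304 to 1807.

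The c ring subunit is encoded by 3 genes whose mature protein is the same. Atp5g2 had a mean normalized count of 1621, Atp5g3 1193 and Atp5g1 698.5, so all were used in these cells. Per kb of exon Atp5g2 was 17.6 times Atp5g1 (16.8 to 18.4) and 4.58 times Atp5g3 (4.41 to 4.76). Atp5g1 has an exon union of 4908 bases, and per kb of coding sequence the ratios were 2.16 and 1.31. The order of the 3 genes held under every length tried. At the bottom of the complex stood Atp5g1 with 142 per kb, Atp5sl with 105 and Atp5s with 40.9. The last pair is counted here by name: Atp5s is a coupling factor not built into the enzyme, and Atp5sl, now named Dmac2 in RefSeq, is not a subunit of complex V.

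Some of these levels rest on reads that could fit elsewhere in the genome. In 13 of the 76 members, at least 1 stretch of 150 bases, the read length, was found unchanged at another place in NCBIM37. This was 100% of such stretches in Atp5g2, which has 3 other loci holding most of its transcript, 81.2% in Atp5l with 10 such loci, 34.2% in Ndufb4 and 22.4% in Cox7a2l, and between 1.78% and 16.9% in the other 9. How the authors' counting split those reads is not given in the sources used here, and the levels of these genes, the ratios of Atp5g2 among them, are uncertain. Without the 13 genes the medians were 265 per kb for complex I, 612 for complex IV and 445 for complex V. Ndufs5, a subunit of complex I, was listed at 0 and so is no member. It has 1 other locus, and 33.7% of its stretches were found there or elsewhere. Eno1, a glycolytic gene that every cell uses, was also listed at 0, with 49.0% of its stretches shared, and so was Rpl26 with 5.32%, while Rpl30 had a mean of 1.17 with 21.9%. A value at or near 0 in this table cannot be read as absence, the low forms of complex IV included.

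Other genes of the pathway were counted from fixed lists. The 5 genes of the complexes that the names leave out (the subunits Ndufab1, Cyc1, Usmg5 and 2010107E04Rik and the inhibitor of complex V, Atpif1) were all over 50, with a median of 525 per kb, and the electron carrier Cycs had a mean of 629.6 while its testis form Cyct was listed at 0. Genes of the mitochondrial genome were not analysed, since the 13 subunits encoded there had 0 rows under their mt- symbols. Under these names they are not part of all normalized counts. Of 43 assembly factors, the proteins that build the complexes without staying in them, 29 were over 50. Their median of mean normalized counts was 119, against 378 for all genes over 50 and 492 for the members. A known length was found for 19 of the 29, with a median of 46.7 per kb, which is too few (under 80%) to stand for the list, and Acad9 had the highest mean with 717.5. All 12 regulators were over 50, with a median of 50.8 per kb at percentile 27.8. Among them Pprc1 had a mean normalized count of 1748, Yy1 986, Gabpa 704, Nrf1 337, Esrra 296, Tfam 150.3, Ppargc1b 127 and Ppargc1a, the coactivator best known for driving mitochondrial growth, 51.4, the lowest of the 12.

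Of the 76 members, 64 had at least 1 promoter, 70 in all, in the table of promoters, which run from 250 bases before to 50 after the start. The cores searched on both strands were GCATGCGC for NRF1, CCGGAAG for ETS factors and AAGATGGC for YY1, and in member promoters 0 matches of one core overlapped a match of another. The NRF1 core was in 14.3% of member promoters, against 5.32% of promoters of genes over 50 and 2.71% of all 32851 promoters. The ETS core was in 22.9% against 17.7% and 8.86%, and the YY1 core in 17.1% against 4.58% and 2.75%. At least 1 of the 3 was in 45.7% of member promoters against 25.1% and 13.3%. Most member promoters thus held none of the 3 cores. These shares are a description, no test was run, and a missing match says only that the letters are not in the window.

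Counts per complex were small and were not tested. The YY1 core was found in 7 of the 30 members of complex I with a promoter (Ndufa9, Ndufs6, Ndufa3, Ndufs4, Ndufs7, Ndufb8 and Ndufc1) and in 4 of 16 of complex V (Atp5j2, Atp5f1, Atp5j and Atp5sl, the last counted there by its name only), and in none of the 3 of complex II, 5 of complex III and 10 of complex IV. The NRF1 core was found in 3, 1, 2, 1 and 3 members of complexes I to V and the ETS core in 4, 2, 2, 3 and 5. Positions differed too. Of 12 YY1 matches in member promoters 9 began at or after the start, as in Atp5j2 and Ndufa9 printed above, 23 and 29 bases after it. Over all promoters 40.2% of YY1 matches did so. The YY1 core holds the letters ATG, which also begin a coding sequence. Whether these matches are starts of translation was not tested. With the 150 bases before the start alone, the YY1 core was in 3.13% of members, against 17.2% in the whole window. The share of other promoters was not taken for that shorter window. The 15 NRF1 matches lay at 10 places, since this core and its reverse complement can overlap, and 2 of the 15 began at or after the start, as did 6 of 19 ETS matches.

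**Figure D5:**
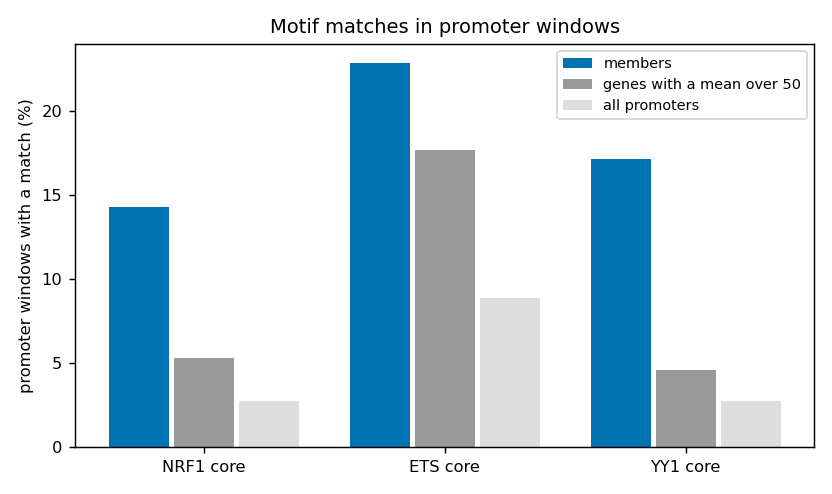
Share of promoter windows that hold each motif core, in percent, for 70 promoters of members, 10260 promoters of genes with a mean over 50 and all 32851 promoters. The members' bar is the highest for each core, at 14.3% for NRF1, 22.9% for ETS and 17.1% for YY1.

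The seed match of miR-205, the induced miRNA, was rare in these genes. ATGAAGG was found in the 3'UTR of 3 of 76 members, Sdhd, Sdha and Ndufa4, which is 3.95%, against 12.4% of 9530 genes over 50 and 10.7% of 17767 genes with a 3'UTR. Sdha holds 2 matches, 1 of which is printed above, and each printed match lies in the last exon of its gene, exon 4 of 4 in Sdhd, 15 of 15 in Sdha and 4 of 4 in Ndufa4. The 3'UTRs of members are short, with a median of 217 bases against 1240.0. Per 10 kb of 3'UTR the members held 1.06 matches and the genes over 50 held 0.859, so per length the members did not hold fewer, although their value rests on 4 matches. Both Sdha and Sdhd, 2 of the 4 genes of complex II, hold a match. With a match of 8 bases, ATGAAGGA, 2 members remained, or 2.63% against 4.41%. Per 10 kb the members held 0.796 such matches and the genes over 50 held 0.283. The members' value rests on these 2 genes alone, too few to compare the densities.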

How the data were processed

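RNA-seq reads (150 nt, paired-end) from a directional kit were aligned by the authors with HISAT2 2.1.0, converted with SAMtools 1.3.1, counted per gene with HTSeq and compared with DESeq2. Labels name mm10, the methods name NCBI37 together with mm10 although these differ, and no row has a coordinate. Not given in the sources used here are the strand setting, the annotation and other versions. The value deposited by the authors and used here is a signal: counts divided by size factors and averaged over 4 libraries. The 5 other columns of measurements hold the authors' log2 fold change, its standard error, a test statistic and p-values, and were not used. There were 0 per-sample columns, so the planned edgeR test of the groups was not run. Total depth is unknown.

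Members and lists were chosen with earlier results of these data known. Genes named are the 3 highest and 3 lowest of each complex per kb, core subunits (apart from an item withheld for evaluation, which is not reported here or drawn by name), isoform families, listed regulators and genes at the threshold; members named for a motif, a shared stretch, a coding-length extreme or Acad9 were chosen after their values were seen. Exon lengths come from GENCODE vM1 on NCBIM37 (20836 genes matched by symbol alone). Promoters and gene places come from RefSeq on GRCm38.p6, for members by symbol or synonym, and no coordinate was converted. The counting variance of a mean is 0.256 times the mean, from the relative depths. Copies were searched with blastn 2.17.0 at 95% identity. Tables and plots were made with matplotlib 3.10.9, pandas 2.3.3, numpy 2.4.6 and scipy 1.17.1 in Python 3.11.15. Only the relative depths and the counting interval were tested on simulated data. Those data were drawn with the depths found here and with counting error alone, so they hold no other spread between libraries. Alternatives were other thresholds, lengths, denominators, motif windows and match lengths; coding-length ratios and percentiles and medians without shared stretches were added after the data were seen.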

Additional observations from a re-analysis of the deposited data

How the results depend on the processing

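No paired analysis was possible because the table holds no value of a single library, and for the same reason leaving out replicates, and a second count test, could not be done. The member count stayed within 1.5 times of 76 under every threshold and with 72 structural subunits alone. The members' share of all counts was 0.45% with a mean over 200, 0.476% without ribosomal RNA and 0.461% among genes over 50. With a mean over 200, complexes I, III, IV and V held 20.9%, 10.6%, 20.2% and 43.8% of the members' counts, and with Ndufa4 in complex I, I and IV held 22.3% and 19.4%. Median levels of complexes I to V were 309, 357, 663, 765 and 650.4 per kb of the longest transcript, 648, 777, 1342, 2096 and 2290 per kb of coding sequence, and 322, 571, 505, 625 and 923 with no division. Complex I was at 271 with a mean over 200, IV at 525 with a mean over 0, and V at 526 with a mean over 100 and 547 over 200. Without shared stretches IV was at 612 and V at 445. Median percentiles with no division were 45.4, 61.8, 58.2, 64.2 and 74.4, and with coding length III, IV and V were at 87.7, 92.0 and 92.7. Within families Atp5g3 was 9.34 times Atp5g1 per kb of the longest transcript and Atp5g2 1.81 times Atp5g3. The YY1 core was in 3.13% of members with the 150 bases before the start alone, and 14.5% of members held a 6-base match of miR-205. Of all alternatives 49 values stayed within the counting interval (a binomial one for shares of genes, 1.5 times for counts of members) and 54 did not.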

Other observations

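Other genes of energy and protein synthesis gave a scale for these levels. Of 77 mitochondrial ribosomal protein genes 73 were over 50, and those with a known length had a median of 73.2 normalized counts per kb at percentile 39.1, below the median of every respiratory complex. Of 100 genes whose symbols start with Rpl or Rps and a digit, which are mostly cytosolic ribosomal proteins but include kinases such as Rps6ka1 and pseudogenes, 86 were over 50, with a median of 3870.3 per kb, and 61 of the 82 that were searched share stretches with other loci. Of 16 glycolytic genes 15 were over 50, and the 14 with a known length had a median of 763 per kb at percentile 92.2. Pkm, with the highest mean of the list, 12143, had no length. Together the 16 glycolytic genes, with Eno1 counted at 0, held 0.397% of all counts, against 0.458% in the 76 members. The value of Eno1 cannot be read as absence and the lists differ in size, so these sums do not rank the pathways. Hk2, the inducible hexokinase, had a mean normalized count of 8589 against 1376 for Hk1, and Ldha had 4451 against 417 for Ldhb. Gapdh, Pgk1 and Pgam1 share over 80% of their stretches with other loci, so their levels are uncertain.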
